A study of Mus musculus with 11 samples.

Results

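The matrix proteases and their inhibitors were followed across the cell classes of perigonadal white adipose tissue (pgWAT), the fat depot beside the gonads. Members were the protein-coding genes whose symbol is Mmp, Adamts, Adamtsl or Timp followed by a number. The rule used no measured value, and it found 45 genes among 23507 gene rows, namely 17 Mmp, 19 Adamts, 5 Adamtsl and 4 Timp genes. The mouse annotation holds 50 such genes, and the other 5 (Mmp1b, Mmp8, Mmp10, Mmp20 and Mmp21) were not analysed here.

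Single cells were taken from the stromal vascular fraction, which is what remains of the tissue once adipocytes are removed, from adult male and female chow-fed Pdgfrb-GFP mice, 12 to 20 weeks old, that carry the Tg(Pdgfrb-eGFP) transgene on the C57BL6/J background. This reporter marks cells in which the Pdgfrb promoter is active, and all mice carried it, males and females alike. The tissue was digested with collagenase at 37 °C, cells without CD45 were selected and then sorted on 11 plates by the reporter, CD31 and DPP4, and Smart-seq2 libraries were sequenced. The 3261 cells came from 3 male mouse ids (1, 4 and 8) and 4 female ids (2, 3, 5 and 6/7), of which id 6/7 stands for 2 animals.

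Cells were clustered without the 45 members, and clusters were named from fixed markers, so that no class was defined by a gene reported here. This gave 2251 adipose stem cell-like cells (ASC-like, the fibroblast class that holds adipocyte progenitors), 561 blood endothelial (EC-like), 137 macrophage-like, 60 pericyte-like and 41 vascular smooth muscle (VSMC-like) cells. There were also 19 epithelial-like cells and 22 of lymphatic EC type, and 170 cells stayed unnamed. Counts were summed per mouse and class where at least 10 cells were found. ASC-like sums existed for 7 mice, EC-like sums for 5 (1, 2, 5, 6/7 and 8), macrophage-like sums for 2 (1 and 5) and mural-like sums, pericyte-like plus VSMC-like, for 2 (1 and 2). A sum held 14765132 to 594421842 reads, and the median cell 629323. Levels are given as CPM, the counts of a gene scaled by the reads of the sum in all genes, and comparisons between genes use CPM per kb of exon.

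The marker sums set the classes apart, with exceptions in mural-like cells. ASC markers summed to 6764 to 21096 CPM in ASC-like sums and to 162 at most in the other classes, EC markers to 2112 to 7401 CPM in EC-like sums, and macrophage markers to 1692 and 2818 CPM in the macrophage-like sums although CD45-negative cells had been selected. The mural-like sum of mouse 2 held only 13 cells, 12 of them rich in markers of another class, and its EC markers reached 4783 CPM against 393 CPM in mouse 1. Adipocyte markers were high in EC-like sums (1067 to 3111 CPM for 10 genes) and low in ASC-like sums (1.63 to 34.5 CPM). Of 383 well names, 382 occurred on more than 1 plate, and no cell column was duplicated.

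Matrix metalloproteinases (MMPs) are zinc enzymes that cut collagens, gelatin and other matrix proteins, some secreted and some held in the cell membrane. ADAMTS enzymes are secreted relatives with thrombospondin motifs that cut proteoglycans such as versican or trim procollagen, and ADAMTS-like proteins share their ancillary domains but lack the protease. Tissue inhibitors of metalloproteinases (TIMPs) bind the active site of these enzymes, and remodelling of the matrix by this system accompanies the growth of fat tissue and of its vessels.

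The classes differed in which of these genes they expressed. ASC-like cells carried the highest summed protease level, led by the gelatinase Mmp2, together with Timp2 and Timp1. EC-like cells expressed few proteases, with Mmp15 and Adamts9 well above the ASC-like level, and carried Timp3 and Timp4. Macrophage-like cells combined Mmp9 with Timp2, and mural-like cells Timp3 with Timp4, several ADAMTS genes and, in part of the cells, Mmp15.

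**Figure D1:**
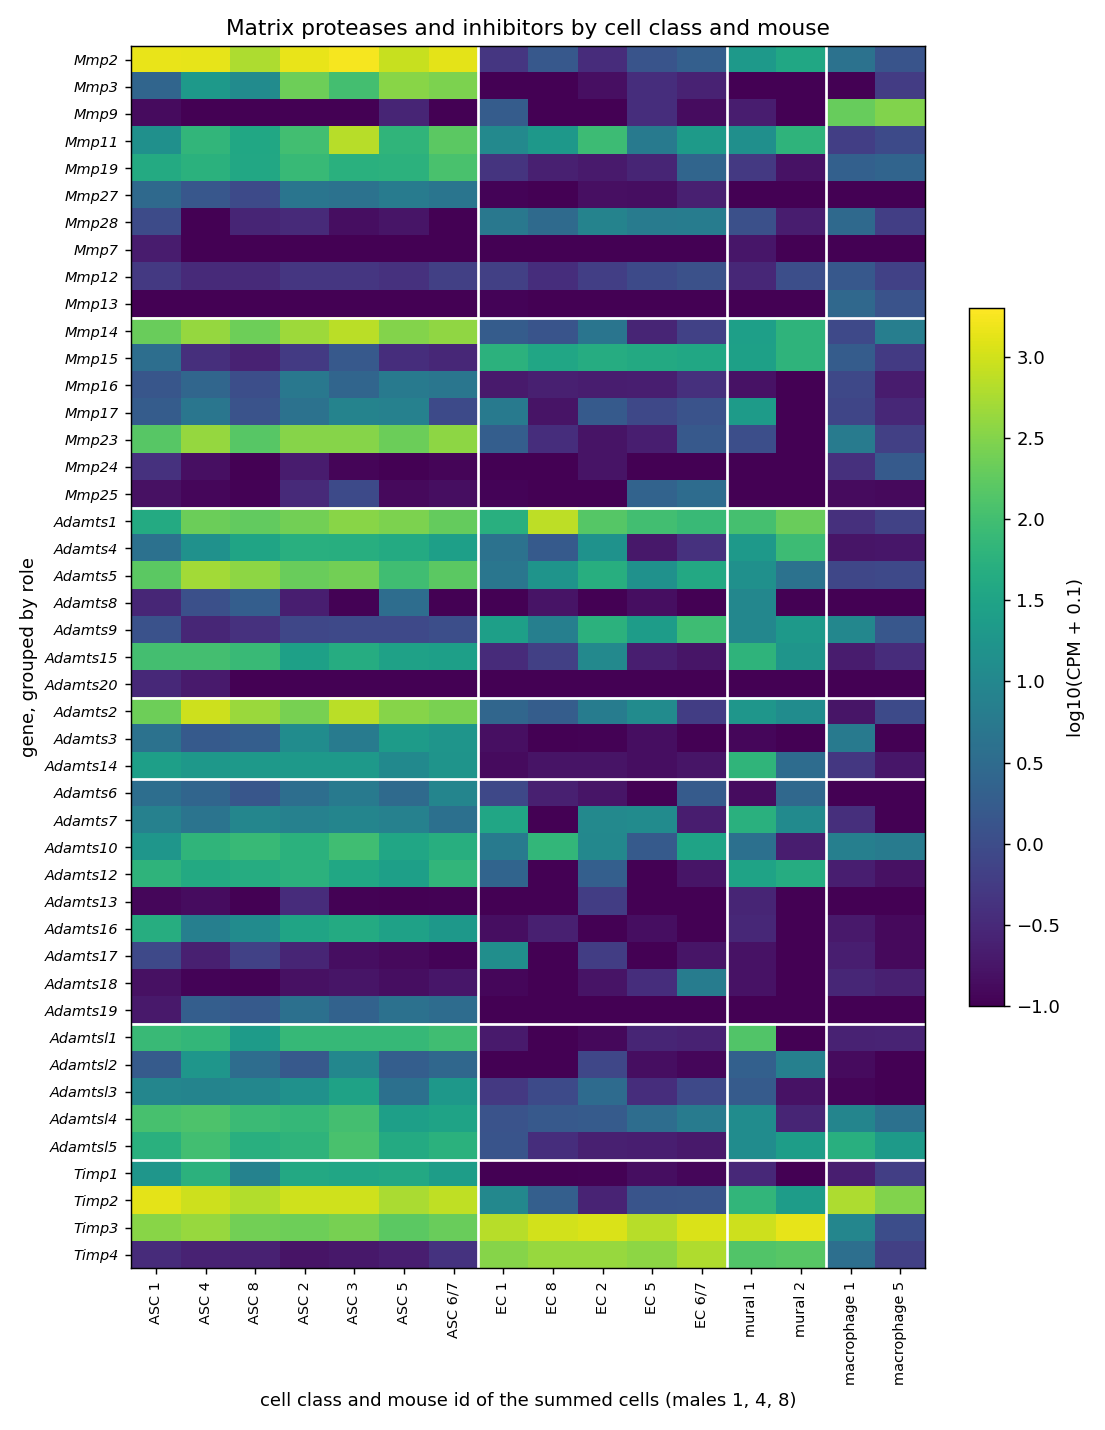
Level of the 45 members (rows, grouped by role between white lines) in the 16 sums of 4 cell classes (columns, 1 per mouse), as log10 of CPM plus 0.1, from dark blue (low) to yellow (high). Many rows are bright in the 7 ASC-like columns, whereas Timp4, Mmp15 and Adamts9 are brighter in the EC-like and mural-like columns and Mmp9 in the 2 macrophage-like columns.

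Of the 45 members, 34 passed the count limit (more than 600 reads in 2 or more of the sums) and were tested. A member could pass through the class where it is high, so the counts that follow describe these 34 and are set beside the share of all 12844 genes tested. To be called, a gene had to differ more than 2.6-fold and with an adjusted p under 0.05. Between ASC-like and EC-like sums, 24 members were called higher in ASC-like cells, where 13.6% of all genes tested were, and 4 higher in EC-like cells, where 8.20% were. The median log2 fold change was 6.14 over the members tested and 0.19 over all genes tested. All 5 Adamtsl genes and all 3 procollagen-processing ADAMTS genes were higher in ASC-like cells, as were 5 of 6 secreted MMPs tested, 3 of 5 membrane MMPs and 3 of 5 proteoglycan-cleaving ADAMTS genes. The inhibitors split, with Timp1 and Timp2 higher in ASC-like and Timp3 and Timp4 higher in EC-like cells.

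Against macrophage-like sums, 19 members were called higher in ASC-like cells (9.08% of all genes tested) and 3 higher in macrophage-like cells (5.95%). Their median log2 fold change was 6.89, or 6.61 with the 3 members without a read in macrophage-like cells set to their bound, against 0.19 over all genes. Only 2 macrophage-like sums existed, and 10 members were called without mouse 1 and 8 without mouse 5. Against mural-like sums, 9 members were called higher in ASC-like cells (3.82% of all genes) and 3 higher in mural-like cells (4.31%), with a median of 2.74 against 0.21. Most of these calls were lost without mouse 2, the mouse with the mixed mural-like cells, or without every cell rich in markers of another class. Either setting left the mural-like sum of mouse 1 alone. Replication was thus removed along with the mixed cells, and their parts cannot be told apart. Between mural-like and EC-like sums, 6 members were called higher in mural-like cells (2.06% of all genes) and 0 higher in EC-like cells (0.226%). At an unadjusted p below 0.05 there were 13, of which Timp4 alone was higher in EC-like cells. The likelihood ratio test of edgeR called 12 members here and DESeq2 11, all higher in mural-like cells, whereas 1 to 4 were called when mouse 1, 2, 5, 6/7 or 8 was left out.

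The 4 inhibitors were divided between the classes. Timp2, which inhibits MMPs broadly and also takes part in the activation of Mmp2, stood at 1355, 984, 987, 925, 564, 779.5 and 627 CPM in the ASC-like sums of mice 1, 2, 3, 4, 5, 6/7 and 8. In EC-like sums it stood at 10.04, 0.17, 1.23, 1.27 and 1.90 CPM (mice 1, 2, 5, 6/7 and 8). Every ASC-like value lay more than an order of magnitude above every EC-like value, and the log2 fold change was 9.11 ± 0.83 (SE; adjusted p = 7.0e-05, edgeR quasi-likelihood test). Macrophage-like sums held 579.7 and 300.5 CPM of Timp2, within or below the ASC-like range, and the difference from ASC-like sums did not pass the test (1.62 ± 0.92, adjusted p = 0.305). Mural-like sums lay between, at 66.6 and 23.9 CPM, below ASC-like sums (log2 fold change 4.93 ± 1.04 for ASC-like over mural-like, adjusted p = 0.020) and above EC-like sums (4.18 ± 0.83, adjusted p = 0.034). Timp2 lost the call against ASC-like sums without mouse 1 (adjusted p = 0.10) or mouse 2 (0.058), and the call against EC-like sums without mouse 1, 5, 6/7 or 8 (0.066 to 0.14).

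Timp1, a secreted inhibitor that responds to growth factors and inflammation, reached 7.85 to 58.1 CPM (median 35.0) in ASC-like sums. It was all but missing elsewhere, with 3 reads in all EC-like sums together, 11 in the mural-like sums and 27 in the macrophage-like sums. With the 5 mice that had both classes pooled, the ratio of ASC-like to EC-like CPM was 3430.45, with a 95% counting interval of 1174 to 16635. This interval treats reads as independent and does not measure the spread between mice. Timp1 was higher in ASC-like cells by 7.05 ± 1.31 on the log2 scale against macrophage-like (adjusted p = 0.0064) and 7.27 ± 1.33 against mural-like sums (adjusted p = 0.011), and these calls were lost without mouse 5 (0.076) and without mouse 2 (0.073), respectively. Timp1 did not differ detectably between mural-like and EC-like sums (4.18 ± 1.30, adjusted p = 0.17).

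Timp3, the inhibitor that binds to the matrix and also blocks ADAM and ADAMTS enzymes, was broad. EC-like sums held 702, 1136, 693, 1127 and 1018 CPM and mural-like sums 951 and 1368 CPM, above the 163 to 431 CPM of ASC-like sums. No EC-like value overlapped the ASC-like range, and Timp3 was 3.70-fold higher in EC-like cells (log2 fold change of ASC-like over EC-like -1.89 ± 0.42, adjusted p = 0.0083). The difference of about the same size from mural-like sums did not pass the test (-1.92 ± 0.57, adjusted p = 0.075), though it did without mouse 5 (0.022). Without mouse 1 it was -2.27, from the mural-like sum of mouse 2 alone. Of the 13 cells of that sum, 12 were rich in markers of another class. Macrophage-like sums were low, at 9.38 and 0.92 CPM, below ASC-like sums by a log2 fold change of 5.80 ± 0.77 (adjusted p = 0.0013). Mural-like and EC-like sums were close (0.03 ± 0.60, adjusted p = 0.99), a value whose sign changed with the processing.

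Timp4, an inhibitor known for its expression in heart and fat, was the called member with the largest fold change in favour of EC-like and of mural-like over ASC-like cells. It stood at 335, 434, 375, 608 and 429 CPM in EC-like sums and at 134 and 153 CPM in mural-like sums. In ASC-like sums it ran from 0.067 to 0.33 CPM, and in macrophage-like sums it stood at 3.65 and 0.56 CPM. The EC-like and mural-like values did not overlap with either, and the log2 fold change of ASC-like over EC-like was -11.24 ± 0.64 (adjusted p = 7.2e-06). It was -9.75 ± 0.70 against mural-like (adjusted p = 0.00014) and -3.51 ± 0.62 against macrophage-like sums (adjusted p = 0.0052, lost without mouse 1 at 0.14). Mural-like and EC-like sums were not told apart (-1.49 ± 0.63, adjusted p = 0.33). After each cell was thinned to 150000 reads, 83.7% of EC-like cells (95% exact interval 80.4 to 86.7) and 2.00% of ASC-like cells (1.46 to 2.67) had a Timp4 read, against 92.7% and 7.91% before thinning, at median depths of 518151 and 669455 reads. Without molecular identifiers, such intervals cover counting error only. They pool the cells of all mice of a class and do not measure the spread between mice.

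Adipocyte markers, like Timp4, were high in EC-like and low in ASC-like sums, so the level of Timp4 was set beside them within EC-like cells. Macrophage-like sums held 113 and 181 CPM of these markers with little Timp4. In 4 equal groups of EC-like cells, ordered from the least to the most adipocyte marker reads, these markers summed to 81.8, 601, 1756 and 7735 CPM and Timp4 stood at 345, 509, 439 and 426 CPM. In these groups 89.4, 95.7, 91.4 and 94.3% of the cells had a Timp4 read. The part of adipocyte RNA in the difference between classes was not tested. VSMC-like cells, with 57.8 CPM of adipocyte markers, held 131 CPM of Timp4, and the 121 unnamed cells led by adipocyte genes, with 11127 CPM of these markers, held 327 CPM. Lymphatic EC-like cells differed from blood EC-like cells, with 1.62 CPM of Timp4, 2818 CPM of Timp3 and 664 CPM of Timp2 over 22 cells, values from a pool of 4 mice with no test.

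Each class therefore had its own TIMP make-up per kb of exon. Timp2 made up 66.7 to 84.8% of the summed TIMP level in ASC-like sums and 98.7 and 99.0% in macrophage-like sums. In EC-like sums Timp3 made up 57.1 to 65.4% and Timp4 34.5 to 42.7%, and in mural-like sums Timp3 made up 74.5 and 84.0% and Timp4 14.5 and 13.0%.

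**Figure D2:**
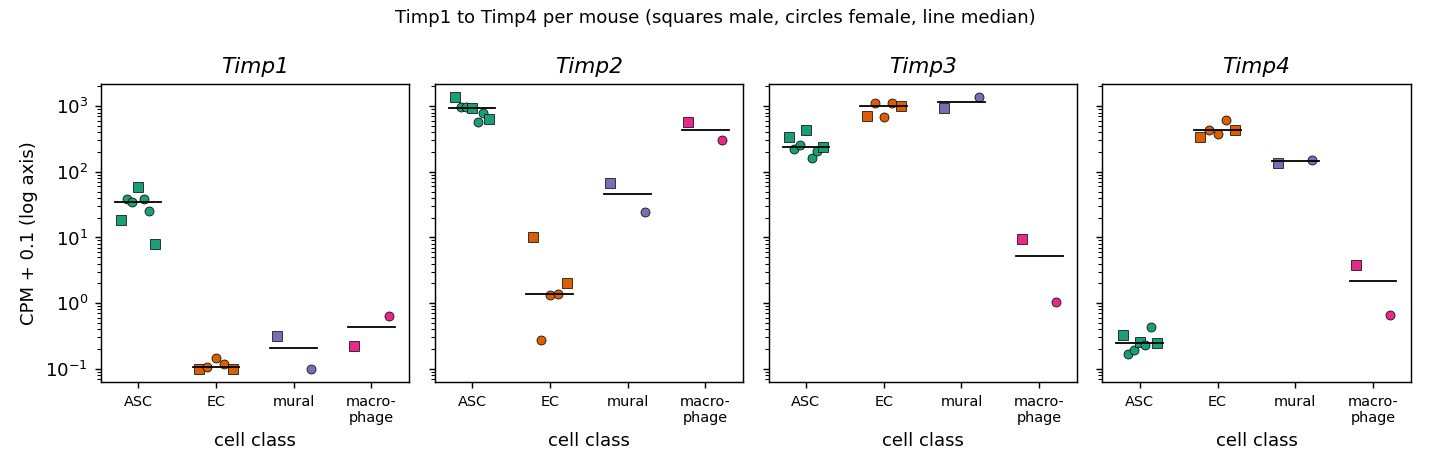
Level of Timp1, Timp2, Timp3 and Timp4 (CPM plus 0.1, log axis) in each sum, 1 point per mouse (squares male, circles female, lines medians), by cell class. Timp2 points of ASC-like sums sit between 564 and 1355 CPM and those of EC-like sums at 10.04 CPM or below, whereas Timp4 points of EC-like sums sit between 335 and 608 CPM and those of ASC-like sums at 0.33 CPM or below.

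Among the secreted MMPs, the gelatinases were divided between ASC-like and macrophage-like cells. Mmp2 (gelatinase A) stood at 1444, 1463, 1748, 1386, 867, 1338 and 601 CPM in ASC-like sums (mice 1, 2, 3, 4, 5, 6/7 and 8) and at 0.26 to 1.90 CPM in EC-like sums. It also stood at 21.3 and 35.8 CPM in mural-like and at 4.06 and 1.23 CPM in macrophage-like sums. No other class reached the ASC-like range. The log2 fold change of ASC-like cells was 10.42 ± 0.83 over EC-like (adjusted p = 3.6e-05), 8.66 ± 1.19 over macrophage-like (adjusted p = 0.0016) and 5.25 ± 1.01 over mural-like sums (adjusted p = 0.014, lost without mouse 1 at 0.085 or mouse 2 at 0.081). Mural-like sums in turn held more Mmp2 than EC-like sums (5.17 ± 0.90, adjusted p = 0.017, lost without mouse 1 at 0.11 or mouse 2 at 0.091). Per kb, Mmp2 was the leading protease in all 7 ASC-like sums, with 33.5 to 67.9% of the summed Mmp and Adamts level.

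Mmp9 (gelatinase B), an enzyme of myeloid cells, stood at 203 and 304 CPM in the macrophage-like sums of mice 1 and 5. It had 19 reads in the ASC-like sums of the same mice (0.067 CPM) and at most 1.70 CPM in EC-like sums. The log2 fold change of ASC-like over macrophage-like was -11.42 ± 1.34 (adjusted p = 0.0028). With either mouse left out, Mmp9 fell under the count limit and was not tested, so the call could not be checked in this way. Mmp9 made up 85.1 and 94.2% of the summed protease level per kb there. Its lower level in ASC-like than in EC-like sums did not pass the test (-3.32 ± 1.04, adjusted p = 0.061).

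Mmp3, a stromelysin that cuts proteoglycans, fibronectin and other MMP precursors, ran from 2.45 to 347 CPM in ASC-like sums, against 0.48 CPM or less in every other sum. Mural-like sums had no Mmp3 read. With mice 1 and 2 pooled, the ASC-like level was at least 3662-fold higher against a floor of 3 reads. This bound is for the pool and was not shown for either mouse alone. Most mural-like reads were of mouse 1, whose ASC-like level was the lowest (2.45 CPM), and most ASC-like Mmp3 reads were of mouse 2. The log2 fold change of Mmp3 was 11.26 ± 0.51 over EC-like (adjusted p = 5.3e-06) and 9.87 ± 0.77 over macrophage-like sums (adjusted p = 0.00020). Mmp27, a little studied relative, had the same distribution at a lower level, 0.84 to 6.11 CPM in ASC-like sums and 0 reads in mural-like and macrophage-like sums. With the mice that had both classes pooled, it was at least 91.9-fold and 119-fold higher in ASC-like cells, bounds not shown for each mouse alone. Mmp19 stood at 38.3 to 115 CPM in ASC-like sums and at 2.41 CPM or less elsewhere (7.85 ± 0.74 over EC-like, adjusted p = 8.4e-05).

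Mmp11, a stromelysin of fibroblasts, was less restricted. ASC-like sums held 14.6 to 163 CPM in 6 mice and 702 CPM in mouse 3, and EC-like sums held 5.83 to 21.7 CPM in 4 mice and 87.7 CPM in mouse 2. The ranges overlapped, the log2 fold change over EC-like sums was 1.72 ± 0.51 (adjusted p = 0.033), and the call was lost without mouse 1, 5, 6/7 or 8. Of the 4 secreted MMPs under the count limit, the collagenase Mmp13 appeared in the macrophage-like sums at 2.70 and 1.15 CPM. No ASC-like sum had an Mmp13 read, which places the macrophage-like level at least 202-fold higher with the mice that had both classes pooled. Only 5 of the 137 macrophage-like cells had an Mmp13 read. Mmp12, the macrophage elastase, stayed at 0.20 to 1.43 CPM in every sum. Mmp28 stood at 2.98 to 8.31 CPM in EC-like sums, above the 0.88 CPM or less of ASC-like sums.

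Mmp3, Mmp27, Mmp13, Mmp12 and Mmp7 lie within 427 kb of each other on chromosome 9. Mmp12 was low in every class and the other 4 were highest in 3 different classes, so the bases before the starts of these 4 are shown. The sequences are RefSeq promoters of GRCm38.p6, plus strand, the 120 bases before the annotated start, with the letters of the AP-1 type motif TGANTCA in capitals.
Mmp13 (5 macrophage-like cells, chr9:7272394-7272513): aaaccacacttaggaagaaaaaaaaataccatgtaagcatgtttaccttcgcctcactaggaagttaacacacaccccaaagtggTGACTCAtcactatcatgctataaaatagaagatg
Mmp3 (ASC-like, chr9:7445702-7445821): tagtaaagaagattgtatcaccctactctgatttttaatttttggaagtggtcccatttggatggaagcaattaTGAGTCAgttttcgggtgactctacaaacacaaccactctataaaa
Mmp27 (ASC-like, chr9:7571276-7571395): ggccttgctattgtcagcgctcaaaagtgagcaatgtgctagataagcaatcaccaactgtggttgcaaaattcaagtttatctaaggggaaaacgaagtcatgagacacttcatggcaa
Mmp7 (epithelial-like, chr9:7691970-7692089): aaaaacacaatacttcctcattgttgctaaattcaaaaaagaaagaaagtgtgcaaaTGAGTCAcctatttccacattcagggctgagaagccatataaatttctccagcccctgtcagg
The motif begins 35 bases before the start of Mmp13, 46 before that of Mmp3 and 63 before that of Mmp7, and the 300-base window of Mmp27 holds none. It reads the same on both strands, and it was found in 7.81% of 32851 mouse promoters of 300 bases. Of the 30 members with a promoter in the table, 4 held it, these 3 and Mmp12, the last in 1 of its 2 promoters. The matches are letters in a window and say nothing about binding.

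Mmp7, an epithelial matrilysin, was found outside the 4 compared classes. It stood at 357 CPM in the 19 epithelial-like cells, all of mouse 1, and 18 of them had a read, with a median of 401 CPM per cell. ASC-like sums held 0.11 CPM at most and EC-like sums none.

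Of the membrane MMPs, Mmp14, the activator of Mmp2 on the cell surface, stood at 210 to 705 CPM in ASC-like sums and at 0.18 to 4.58 CPM in EC-like sums (log2 fold change 8.02 ± 0.89, adjusted p = 0.00019). Mural-like sums held 26.6 and 62.7 CPM, more than EC-like sums (4.71 ± 0.89, adjusted p = 0.025, lost without mouse 1, 2, 6/7 or 8 at 0.054 to 0.13). Mmp23, anchored by its amino-terminal end, stood at 151 to 417 CPM in ASC-like sums and at 5.98 CPM or less elsewhere (9.63 ± 1.05 over EC-like, adjusted p = 0.00017). After Mmp2 it was the second protease per kb in 5 of the 7 ASC-like sums. Mmp16 followed at 0.99 to 5.71 CPM (4.66 ± 1.00 over EC-like, adjusted p = 0.0073).

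Mmp15, a close relative of Mmp14, ran the other way. It stood at 58.2, 45.7, 40.3, 35.9 and 35.6 CPM in EC-like sums (mice 1, 2, 5, 6/7 and 8) and at 0.16 to 3.43 CPM in ASC-like sums. These ranges were far apart, and the log2 fold change of ASC-like over EC-like was -6.38 ± 0.78 (adjusted p = 0.00033). The mural-like sums held 27.2 and 62.7 CPM (ASC-like over mural-like -5.63 ± 0.93, adjusted p = 0.0074, lost without mouse 2 at 0.11). Within the mural-like cells of mouse 1, Mmp15 stood at 66.2 CPM in the 12 pericyte-like cells without many reads of another class and at 0.35 CPM in the 38 VSMC-like cells. The EC markers of these cells summed to 115 and 12.1 CPM. In the other mice, pericyte-like cells without many reads of another class numbered 2 in mouse 5 and 1 in mouse 2. They held 103 and 227 CPM of Mmp15, with 4.57 and 204 CPM of EC markers. The part of endothelial RNA in the mural-like Mmp15 level was not tested. Adamts9 and Mmp15 were the only proteases called higher in both EC-like and mural-like than in ASC-like sums.

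The proteoglycan-cleaving ADAMTS genes were spread over the classes. Adamts5, the main aggrecanase of cartilage, stood at 95.8 to 513 CPM in ASC-like and at 4.69 to 49.8 CPM in EC-like sums (3.21 ± 0.73, adjusted p = 0.0098). Adamts15 stood at 26.4 to 104 CPM in ASC-like sums and at 0.078 to 10.5 CPM in EC-like sums (6.62 ± 1.58, adjusted p = 0.012), and Adamts4 at 3.94 to 50.9 and 0.088 to 15.2 CPM (4.21 ± 1.22, adjusted p = 0.030). Both of the latter calls rested on few EC-like mice, since Adamts4 lost it without mouse 2, 5, 6/7 or 8 and Adamts15 without mouse 5 or 6/7. Adamts1 did not separate ASC-like from EC-like cells (0.50 on the log2 scale), with 42.6 to 337 CPM in ASC-like sums and 51.6 to 146 CPM in EC-like sums apart from 752 CPM in mouse 8. It was the first or second protease per kb in every EC-like sum (24.3 to 84.5%) and was low in macrophage-like sums, at 0.30 and 0.62 CPM (8.04 ± 0.95 for ASC-like over macrophage-like, adjusted p = 0.00072). Adamts9, which cuts versican, was lower in ASC-like cells, with 0.19 to 1.13 CPM against 7.18 to 93.3 CPM in EC-like, 9.69 and 20.1 CPM in mural-like and 9.53 and 1.34 CPM in macrophage-like sums. Its log2 fold change of ASC-like cells was -5.21 ± 0.62 over EC-like (adjusted p = 0.00028) and -3.62 ± 0.76 over mural-like sums (adjusted p = 0.019, lost without mouse 1 at 0.067 or mouse 2 at 0.24). The difference from macrophage-like sums, -2.51 ± 0.73 (adjusted p = 0.047), lost the call without mouse 1, 2, 5 or 6/7.

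The procollagen N-proteinases Adamts2, Adamts3 and Adamts14, which trim fibrillar procollagens, were all called higher in ASC-like than in EC-like cells. Adamts2 was the most abundant of them per kb, with 222 to 955 CPM in ASC-like sums against 0.51 to 11.8 CPM in EC-like sums (6.87 ± 0.84, adjusted p = 0.00031). Adamts14 stood at 10.9 to 26.3 CPM in ASC-like sums and at 0.078 CPM or less in EC-like sums (8.48 ± 0.91, adjusted p = 0.00016). Adamts3 was lower, at 1.54 to 22.7 CPM in ASC-like sums and 0.053 CPM or less in EC-like sums (10.28 ± 1.88, adjusted p = 0.0031). Adamts14 was also found in mural-like sums, at 64.6 CPM in mouse 1 and 3.17 CPM in mouse 2, and its log2 fold change over EC-like sums was 8.52 ± 1.15 (adjusted p = 0.0052, lost without mouse 1 at 0.067). Within mouse 1 it stood at 141 CPM in the 38 VSMC-like cells and at 0.18 CPM in the 12 pericyte-like cells, whereas the 3 VSMC-like cells of mice 4 and 8 held 1.79 and 0.35 CPM.

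Among the other ADAMTS genes, Adamts12 stood at 26.7 to 68.5 CPM in ASC-like sums (7.32 ± 1.14 over EC-like, adjusted p = 0.0012) and Adamts16 at 7.15 to 48.0 CPM (10.48 ± 1.20, adjusted p = 0.00022). Adamts19 reached 0.098 to 3.88 CPM in ASC-like sums and had no read in the EC-like, mural-like and macrophage-like sums. With the 5 mice that had both classes pooled, it was at least 329.9-fold higher than in EC-like cells. The call was lost without mouse 5 (adjusted p = 0.054, edgeR quasi-likelihood test). Without mouse 2 or 6/7 it fell under the count limit and was not tested. Mural-like sums held 31.5 and 46.7 CPM of Adamts12, more than EC-like sums (5.15 ± 1.11, adjusted p = 0.049, lost when any of mice 1, 2, 5, 6/7 and 8 was left out, at 0.057 to 0.21). Adamts7, which together with Adamts12 cuts cartilage oligomeric matrix protein, stood at 53.3 CPM in the mural-like sum of mouse 1 and did not pass the test between ASC-like and EC-like sums. Adamts17 was found at 13.3 CPM in the EC-like sum of mouse 1 and at 0.51 CPM or less in the other 4, and Adamts18 at 6.24 CPM only in that of mouse 6/7. Adamts13, the protease of von Willebrand factor, stayed at 0.50 CPM or less in every sum.

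The 5 ADAMTS-like genes, which code for no active protease, were called higher in ASC-like than in EC-like cells, whereas 2 were called against macrophage-like and 0 against mural-like sums. Adamtsl1 stood at 69.7 to 94.1 CPM in 6 ASC-like sums and at 23.0 CPM in mouse 8, against 0.18 CPM or less in EC-like sums (10.27 ± 1.60, adjusted p = 0.0012). In mural-like sums it stood at 136 CPM in mouse 1 and at 0 in mouse 2, with no detectable difference from ASC-like sums (1.28 ± 1.90, adjusted p = 0.77). Adamtsl4 ran from 26.6 to 124 CPM (4.77 ± 1.03, adjusted p = 0.0075), and Adamtsl5 from 42.7 to 116 CPM (7.78 ± 0.71, adjusted p = 6.9e-05). Adamtsl2 and Adamtsl3 followed at 1.52 to 18.3 and 3.71 to 29.8 CPM, and both lost the call over EC-like sums without mouse 5, 6/7 or 8, Adamtsl2 also without mouse 1. Adamtsl5 was also found in macrophage-like sums, at 52.2 and 21.9 CPM, and in mural-like sums, at 12.5 and 24.9 CPM, above EC-like sums (5.73 ± 0.78, adjusted p = 0.0055, lost without mouse 2 at 0.058).

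Pericyte-like and VSMC-like cells were set side by side in mouse 1 only, as values without a test. The 38 VSMC-like cells held 290.0 CPM of Adamtsl1, 117 of Adamts15, 43.6 of Mmp17 and 20.8 of Adamts8, and the 12 pericyte-like cells with few reads of another class held 8.51, 1.63, 0.36 and 0.18 CPM. These 12 cells in turn held 270.2 CPM of Adamts7, 207 of Adamts12 and 1407 of Timp3, against 0.48, 1.27 and 368 CPM in VSMC-like cells. The other 32 pericyte-like cells of mouse 1, rich in reads of another class, held 53.7 CPM of Adamts7, 19.1 of Adamts12 and 1442 of Timp3, and the 2 pericyte-like cells of mouse 5 held 0, 17.3 and 720.4 CPM. Outside mouse 1 there were only 3 VSMC-like cells, 1 in mouse 4 and 2 in mouse 8. They held 875 and 373 CPM of Adamtsl1 and 0 and 49.3 CPM of Mmp17 (mice 4 and 8), but 17.9 and 0.35 CPM of Adamts15, and no Adamts8 read. In mouse 1 the mural-like sum thus mixed cells with unlike values, and in mouse 2 all 13 cells were pericyte-like. Adamts8, an anti-angiogenic member of the family, did not pass the count limit. It had 481 reads in the mural-like sum of mouse 1, none in that of mouse 2 and none in the EC-like sums of either. Pooled over both mice this is at least 629-fold higher in mural-like cells, a bound that rests on mouse 1 alone.

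Class and plate were partly tied, and the pairs on a common plate were read separately. On plates 344, 43 and 843, which held ASC-like and EC-like cells together, Timp4 stood at 0.15, 1.69 and 0.13 CPM in ASC-like and at 429, 613 and 375 CPM in EC-like cells. Mmp2 stood there at 601, 1255 and 867 CPM in ASC-like and at 1.42, 1.64 and 1.23 CPM in EC-like cells. On plate 172, with 242 ASC-like and 76 mural-like cells, Timp4 stood at 0.23 and 108 CPM and Timp2 at 1352 and 64.3 CPM. On plate 843, Mmp9 stood at 0.18 CPM in 104 ASC-like and at 304 CPM in 61 macrophage-like cells. Each difference kept its direction within a plate.

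Set against the MMPs, the summed TIMP level per kb was low in ASC-like cells and high in vascular cells. The ratio of TIMPs to MMPs was 0.29 to 0.74 in the 7 ASC-like sums, 4.90 to 13.1 in the 5 EC-like sums, 6.25 and 3.58 in the mural-like sums and 2.34 and 0.87 in the macrophage-like sums. The ASC-like range did not overlap with any other class. Against all Mmp and Adamts genes together the ratio was 0.25 to 0.65 in ASC-like, 1.18 to 4.89 in EC-like, 1.82 and 1.60 in mural-like and 2.24 and 0.85 in macrophage-like sums, with the lowest EC-like value in mouse 8, where Adamts1 was high. The ratio compares transcripts and not active proteins. The MMP sums differed more than the TIMP sums, since MMPs summed to 312 to 1104 CPM per kb in ASC-like and to 12.5 to 43.5 CPM per kb in EC-like sums, whereas TIMPs summed to 199 to 410 and 146 to 242 CPM per kb.

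ASC-like cells were next divided into the subtypes ASC1a, ASC1b and ASC2 by fixed markers that hold no member, scored within each mouse. ASC2 cells, marked by Dpp4 and Pi16, carried Adamts16, more Timp3, Timp2 and Adamtsl4, and less Mmp3 than the other subtypes, and ASC1a and ASC1b were not told apart by any member. The subtypes are ranges of a score, and 498 of 2251 ASC-like cells (22.1%) lay near a boundary. Each of the 7 mice gave a sum of each subtype, and 30 members were among the 11147 genes tested, with the mouse as a block.

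Between ASC1a and ASC1b, 0 members were called in either direction, against 0.0359% and 0.179% of all genes tested called higher in ASC1a and in ASC1b. At an unadjusted p below 0.05 there were 5, and the likelihood ratio test and DESeq2 also called 0. Between ASC1a and ASC2, 1 member was called higher in ASC1a (1.67% of all genes) and 4 higher in ASC2 (1.73%). Between ASC1b and ASC2, 2 were called higher in ASC1b (1.69%) and 4 higher in ASC2 (1.26%). The median log2 fold change of the members was 0.12 and 0.25 in these last comparisons, against 0.003 and -0.01 over all genes.

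Adamts16, a secreted ADAMTS enzyme, had the largest fold change of the members between ASC2 and either other subtype. It stood at 125, 89.2, 122.5, 23.9, 79.5, 53.2 and 32.3 CPM in ASC2 sums (mice 1, 2, 3, 4, 5, 6/7 and 8), and at 0.046 to 2.21 CPM in ASC1a and 0.22 to 1.16 CPM in ASC1b. Every ASC2 value lay above every ASC1 value, and the log2 fold change of ASC1a over ASC2 was -6.81 ± 0.69 (adjusted p = 4.0e-06) and of ASC1b over ASC2 -7.08 ± 0.70 (adjusted p = 5.6e-06). In mouse 2 the subtypes followed the DPP4 sort. On its DPP4-positive plate, however, Adamts16 stood at 91.7 CPM in 254 ASC2 cells, 0.75 CPM in 73 ASC1a and 0.84 CPM in 52 ASC1b cells.

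The inhibitors Timp2 and Timp3 were also higher in ASC2. Timp2 stood at 1888, 1449, 1371, 1411, 830, 1085 and 851 CPM in ASC2 against 423 to 989 CPM in ASC1a and 387 to 1083 CPM in ASC1b, and ASC2 was highest in 7 of 7 mice. The log2 fold change was -0.93 ± 0.09 for ASC1a over ASC2 (adjusted p = 2.8e-06) and -0.85 ± 0.09 for ASC1b over ASC2 (adjusted p = 1.0e-05), under the fold limit for a call. Timp3 was higher in ASC2 than in both other subtypes in 6 of 7 mice, the exception being mouse 8. It differed by -1.73 ± 0.36 (ASC1a over ASC2, adjusted p = 0.0036) and -1.41 ± 0.35 (ASC1b over ASC2, adjusted p = 0.015, lost without mouse 2, 3 or 5 at 0.049 to 0.069, in the last case by its fold). In the 4 females Timp3 stood at 50.4 to 109.8 CPM in ASC1a and at 328 to 516 CPM in ASC2, whereas in the 3 males it stood at 225 to 485 and 192 to 555 CPM. Timp1 did not pass the test in either comparison (0.04 ± 0.37, adjusted p = 0.97, and 0.78 ± 0.37, adjusted p = 0.255), nor between ASC1a and ASC1b (-0.74 ± 0.37, adjusted p = 0.50), where Timp2 (-0.08 ± 0.09) and Timp3 (-0.32 ± 0.34) also missed it.

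Mmp3 ran against these genes. It was lower in ASC2 than in ASC1b in 7 of 7 mice and than in ASC1a in 6, and the female values were 28.9 to 61.7 CPM in ASC2, 137 to 719 CPM in ASC1a and 149 to 706 CPM in ASC1b. It differed on the log2 scale by 3.48 ± 0.61 for ASC1b over ASC2 (adjusted p = 0.0010) and 2.29 ± 0.60 for ASC1a over ASC2 (adjusted p = 0.019, lost without mouse 2, 3, 4 or 5 at 0.053 to 0.066). Adamts4 was lower in ASC2 in 7 of 7 mice and called only against ASC1b (1.39 ± 0.36, adjusted p = 0.021, lost without mouse 2, 4 or 8). Its difference from ASC1a, 1.37 ± 0.35 (adjusted p = 0.016), lay just under the fold limit. Adamts1 was likewise lower in ASC2 in 7 of 7 mice, with log2 fold changes of 0.75 ± 0.17 and 1.00 ± 0.17 (adjusted p = 0.0069 and 0.00078) under the limit.

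Adamtsl4 was called higher in ASC2 against both (-1.69 ± 0.37, adjusted p = 0.0063, and -1.72 ± 0.37, adjusted p = 0.0057), with 44.9 to 245 CPM in ASC2, 16.7 to 86.8 CPM in ASC1a and 4.20 to 119.95 CPM in ASC1b. Without mouse 3, its change against ASC1a was -1.33, under the limit. Adamts6 was called against ASC1a (-2.93 ± 0.69, adjusted p = 0.010) and Adamtsl3 against ASC1b (-1.40 ± 0.27, adjusted p = 0.0020), the latter falling under the fold limit without mouse 1, 4, 5, 6/7 or 8 (-1.35 to -1.28). Genes that respond to cell isolation, such as Fos and Jun, summed to 3110 to 16776 CPM in ASC2, 8328 to 26879.8 CPM in ASC1a and 6529 to 25603 CPM in ASC1b, and their part in these differences was not tested.

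**Figure D3:**
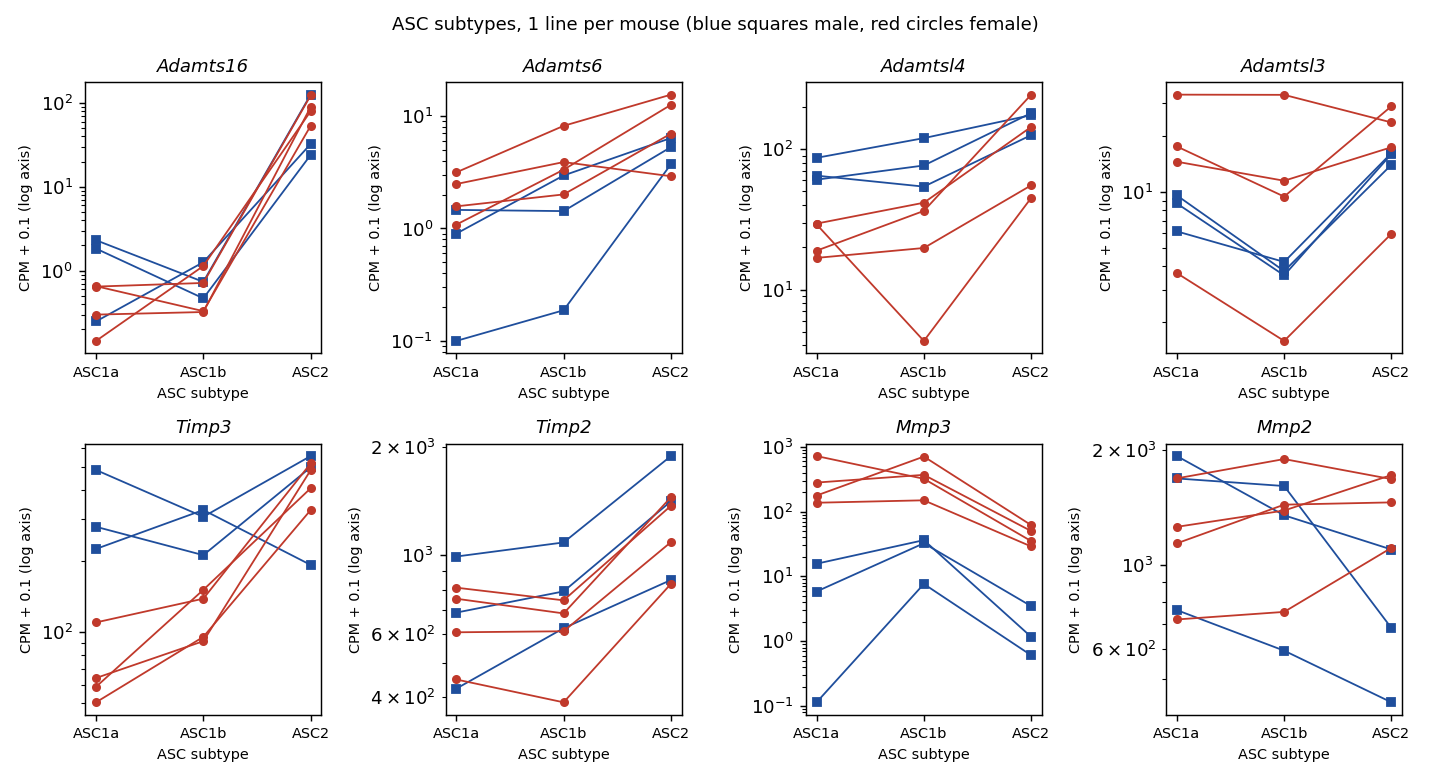
Level of 8 members (CPM plus 0.1, log axis) in the ASC1a, ASC1b and ASC2 sums, with a line joining the 3 sums of each mouse (blue squares male, red circles female). Adamts16 climbs in ASC2 to between 23.9 and 125 CPM in all 7 mice, and the Timp3 lines of the 4 females climb from at most 109.8 CPM in ASC1a to at least 328 CPM in ASC2, whereas 1 male line ends lower in ASC2 than in ASC1a.

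With the subtypes the balance of inhibitors and proteases shifted in each mouse. The ratio of TIMPs to MMPs per kb was 1.29, 0.59, 0.52, 1.08, 0.58, 0.47 and 0.99 in ASC2, 0.20 to 0.42 in ASC1a and 0.17 to 0.65 in ASC1b, and the ASC2 value was the highest of the 3 in 7 of 7 mice.

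Male and female ASC-like sums were compared as 3 mouse ids against 4. Adamts15 and Adamts5 were higher in males and Mmp3 was higher in females, while 27 of the 30 members tested were not called. Among 11822 genes tested, 2 members were called higher in males (1.55% of all genes) and 1 higher in females (0.685%), and the median log2 fold change of male over female was 0.20 for the members and 0.04 for all genes. Sexes were on separate plates, so that sex and plate cannot be told apart.

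Mmp3 stood at 2.45, 20.04 and 11.5 CPM in males 1, 4 and 8 and at 223, 103, 347 and 285 CPM in females 2, 3, 5 and 6/7. The highest male value was below the lowest female value. The log2 fold change of male over female was -3.93 ± 0.67 (adjusted p = 0.017), and the call was lost without mouse 4, 6/7 or 8 (0.051 to 0.056). Adamts15 stood at 102, 104 and 81.6 CPM in males and at 27.9, 46.0, 29.2 and 26.4 CPM in females, again without overlap (2.30 ± 0.31, adjusted p = 0.0052), and it kept the call with any mouse left out. Adamts5 stood at 166, 513 and 373 CPM in males and 211, 244, 95.8 and 164.5 CPM in females. These ranges overlapped before the scaling of the test (1.64 ± 0.35, adjusted p = 0.043), and the call was lost without mouse 2, 4, 5, 6/7 or 8 (0.085 to 0.16).

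The male result depends on that scaling. The TMM factors, which correct library totals for a few very abundant genes, were 0.60 and 0.62 in males 8 and 1 and 0.99 to 1.36 in the other 5 mice. Scaled by library totals alone, the median of all genes moved from 0.04 to -0.60, the share of calls higher in males fell from 69.3% to 28.3%, and the 3 members called were Mmp3, Mmp11 and Adamts3, all higher in females. Adamts15 (1.57, adjusted p = 0.058) and Adamts5 (0.97, adjusted p = 0.25) then kept their direction without the call. Of the inhibitors, Timp3 was higher in males under the fold limit (1.34 ± 0.26, adjusted p = 0.032), and Timp2 (1.01 ± 0.38, adjusted p = 0.20) and Timp1 (0.09 ± 0.42, adjusted p = 0.93) did not pass. Timp3 was called in ASC1a cells alone (2.86, adjusted p = 0.0010), in ASC1b cells alone (2.03, adjusted p = 0.014), in cells thinned to 150000 reads (1.44, adjusted p = 0.028) and without mouse 3 or 4 (1.40 and 1.47). Mmp3 was not called in ASC1a cells alone (-5.31, adjusted p = 0.10). Within ASC2 cells alone 0 members were called, with -3.85 on the log2 scale for Mmp3 (adjusted p = 0.056), and within ASC1b cells 5 were. The isolation genes summed to 5831, 21990 and 13587 CPM in males 1, 4 and 8 and to 8616 to 22440 CPM in females, and their part was not tested.

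**Figure D4:**
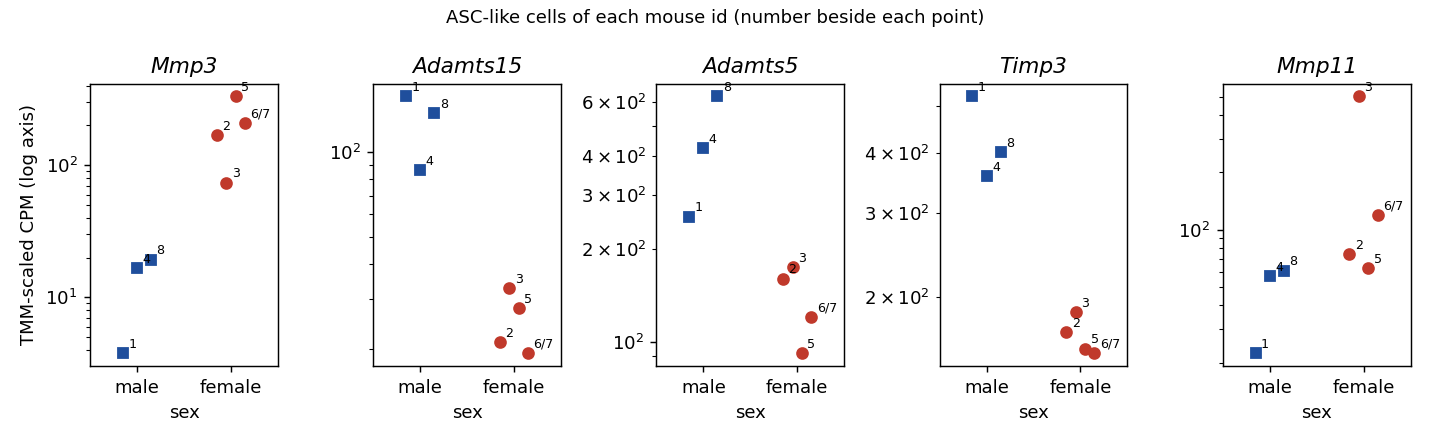
Level of Mmp3, Adamts15, Adamts5, Timp3 and Mmp11 in the ASC-like sums (TMM-scaled CPM, log axis), 1 point per mouse with its id, for 3 males (blue squares) and 4 females (red circles). The sexes do not overlap in any panel on this scale, with Adamts15 at 86.1 to 157 in males and 19.3 to 32.9 in females.

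Further genes that act on the matrix were read from lists that hold no member. Of 23 other matrix proteases, 21 were tested, and 13 were called higher in ASC-like and 2 in EC-like cells (median log2 fold change 3.43, against 0.19 over all genes), where 13.6% and 8.20% of all genes tested were. Among the former were Ctsk, the collagen-cutting cathepsin K (82.5 to 239 CPM in ASC-like and 2.76 CPM or less in EC-like sums), the serine protease Htra3 (7.45 ± 0.81) and the fibroblast activation protein Fap (7.19 ± 0.84), and the latter were the sheddases Adam10 (-2.01 ± 0.31) and Adam15 (-1.56 ± 0.20). Against macrophage-like cells 9 were called higher in ASC-like (9.08% of all genes) and 4 in macrophage-like cells (5.95%), the lysosomal cathepsins Ctss, Ctsb and Ctsd and Adam15, with Ctss at 296 and 577 CPM. Against mural-like cells 6 were called, all higher in ASC-like cells (3.82% of all genes), and between mural-like and EC-like cells 4, all higher in mural-like cells (2.06%).

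Of 17 regulators of matrix proteases, 16 were tested, and 10 were called higher in ASC-like and 1 in EC-like cells (median 4.58), against the same 13.6% and 8.20% of all genes. Serpinf1 (9.04 ± 0.89), Serping1 (8.51 ± 0.62) and Pcolce2, an enhancer of procollagen processing (8.39 ± 1.21), were higher in ASC-like cells and the urokinase receptor Plaur in EC-like cells (-2.52 ± 0.40). Reck, a membrane-bound MMP inhibitor, stood at 31.5 to 73.1 CPM in ASC-like and at 0.084 and 0.14 CPM in macrophage-like sums (8.53 ± 2.07, adjusted p = 0.022). Between ASC1a and ASC2, Pcolce2 (-1.89 ± 0.14, adjusted p = 1.3e-07, edgeR quasi-likelihood test) and Serpinb1a (-2.30 ± 0.35) were called higher in ASC2 and Serpine2 (1.77 ± 0.48) in ASC1a. Of the other matrix proteases, Prss23 (-1.49 ± 0.18) was called higher in ASC2 and Adam12 (1.54 ± 0.18) in ASC1a. Of all genes tested, 1.73% were called higher in ASC2 and 1.67% in ASC1a. Hpse alone was called between ASC1b and ASC2, higher in ASC2 (-1.56 ± 0.30), where 1.26% of all genes were. Of the regulators, Serpine2, a protease inhibitor of the serpin family, was called higher in males (2.38 ± 0.26, adjusted p = 0.0016). So was Papln (2.51 ± 0.51, adjusted p = 0.037), where 1.55% of all genes were. Of the list of other matrix proteases, 20 were tested between the sexes and 0 were called. Of the proteoglycan substrates, 2 of 4 were tested, and versican (Vcan) stood at 40.2 to 191 CPM in ASC-like and at 0.41 CPM or less in EC-like sums (10.04 ± 0.99, adjusted p = 0.00011). Of the 12 genes of the isolation response, 0 were called between ASC-like and EC-like cells. Fos was called higher in mural-like than in EC-like sums (1.82 ± 0.35, adjusted p = 0.027, edgeR quasi-likelihood test), where 2.06% of all genes were. Fosb was called higher in ASC1a than in ASC2 (1.38 ± 0.21, adjusted p = 0.00020), where 1.67% of all genes were. The other comparisons called 0 of the 12.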

How the data were processed

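Read counts per gene of single cells (Smart-seq2) were deposited by the authors as whole numbers, from reads aligned to mm10 with STAR and, per the labels' processing notes, with Salmon and bcl2fastq also named; tool versions were not given in the sources used here. The counts were not normalized. The members and lists were chosen with earlier results of these data known.

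Of the gene rows, 23461 matched GENCODE vM21 (46 did not), and 72 spike-in rows (1.98% of reads) were left out. Cells were clustered with Seurat 5.3.0 (3000 variable genes without the 45 members, 14 components, resolution 1.1, 18 clusters), and a class needed 3 markers, each in 25% of cells. Doublets were not called, and cells with over 10% of the reads of their own markers in those of another class were left out in an alternative. ASC subtypes were scored within each mouse. Counts were summed per mouse id and class (10 cells or more) and tested with the quasi-likelihood test of edgeR 4.0.16 (R 4.3.3, TMM, two-sided, Benjamini-Hochberg over all genes tested) where the summed count exceeded 600 in at least 2 sums. The study's own fold limit of 2.6 was kept. Sums of 1 mouse id come from the same animal (id 6/7 from the same 2), so the id was a block in class and subtype fits. Males and females share no id, so that fit had no block.

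The rule for full statistics named the members called in a comparison (the 12 with the largest fold where more were called), the 4 Timp genes and, of each further list, up to 4 called genes per direction; further members were given statistics by their role after their values had been seen. Alternatives were DESeq2 1.42.0, a likelihood ratio test, RLE factors, library totals, a lower count limit, cells thinned to 150000 reads, other class definitions, sums of at least 20 cells, no block and each mouse left out. The fits were tested on simulated data. Sequences came from RefSeq promoters (GRCm38.p6).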

Additional observations from a re-analysis of the deposited data

Results flagged for a closer look

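Of 33 groups of sums screened, 4 held a sum far from the others, and chance flags about 1 in 20. Adamtsl1 stood at 23.0 CPM in the ASC-like sum of mouse 8, against 69.7 to 94.1 CPM in the other 6 mice. Mmp11 stood at 702 CPM in the ASC-like sum of mouse 3, against 14.6 to 163 CPM in the others. Mmp11 also stood at 87.7 CPM in the EC-like sum of mouse 2, against 5.83 to 21.7 CPM. Adamts1 stood at 752 CPM in the EC-like sum of mouse 8, which held 29 cells, against 51.6 to 146 CPM. Their causes were not tested.

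The difference between ASC2 and the mean of ASC1a and ASC1b was compared between the sexes by an interaction term, a test chosen after the values had been seen. Of 11147 genes tested, 12 had an adjusted p below 0.05, 2 of the 30 members among them (edgeR quasi-likelihood test). For Timp3 the difference was 2.30 on the log2 scale in females and 0.36 in males, and the former exceeded the latter by 1.94 ± 0.34 (adjusted p = 0.036). For Mmp2 it was 0.31 in females and -0.83 in males, a difference of 1.13 ± 0.20 (adjusted p = 0.047). The same test gave 0.13 for Timp2 (adjusted p = 0.88) and -0.13 for Mmp3 (adjusted p = 0.99). Sex and plate cannot be told apart here.

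Mmp7 stood at 357 CPM in the 19 epithelial-like cells, which enter no comparison, against 0.11 CPM at most in ASC-like sums. All 19 came from mouse 1.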

How the results depend on the processing

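The count of members called between ASC-like and EC-like sums ran from 25 to 31 over the alternatives and from 22 to 28 with each mouse left out, and between ASC1a and ASC1b it was 0 throughout. Against mural-like sums (12 called) it was 20 by the likelihood ratio test, 21 by DESeq2, 4 with classes from the markers of each cell, 1 without cells rich in markers of another class, 4 with sums of at least 20 cells, and 3 to 15 with each mouse left out. Against macrophage-like sums (22) it was 8 to 22 with each mouse left out. Between mural-like and EC-like sums (6) it was 12 by the likelihood ratio test, 11 by DESeq2, 2 with classes from the markers of each cell, and 1 to 6 with each mouse left out. Without the replicate block it was 10 there, 17 against mural-like sums, and 1 instead of 5 (ASC1a and ASC2) and 1 instead of 6 (ASC1b and ASC2). Thinning gave 3 in the last comparison, and leaving out each mouse gave 4 to 6 in both. Between the sexes (3) it was 5 by DESeq2, 5 in ASC1b cells, 0 in ASC2 cells and 1 to 5 with each mouse left out. The causes were not tested.

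Only values that were not called changed sign. Timp3 between mural-like and EC-like sums was -0.055 with library totals, -0.53 with classes from the markers of each cell, -0.87 without cells rich in other markers, -0.41 with sums of at least 20 cells and -0.36 to 0.32 with each mouse left out, and Timp1 there was -3.92 to 5.00. Timp1 between ASC1a and ASC2 was -0.0085 when thinned, -0.20 with classes from the markers of each cell, -0.0050 away from subtype boundaries and -0.24 to 0.33 with each mouse left out. Timp1 between the sexes was -0.30 with library totals, -0.12 when thinned, -0.70 in ASC1a cells, -0.043 in ASC2 cells and -0.42 to 0.46 with each mouse left out. Of the values followed, 1192 kept their direction and side of the threshold, 145 lost the call and 15 gained it. Called members with smaller folds, and members that fell under the count limit in an alternative, are not in this tally. It therefore understates the calls lost. Of the shares of cells with a read, 116 moved beyond their interval between thinned and unthinned cells and 64 did not. Thinning only removes reads, so lower shares were to be had in advance, and this count is no check of the results.

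Mural-like and macrophage-like sums existed for 2 mice each, and 32 of the 82 mural-like cells of mouse 1 and 12 of the 13 of mouse 2 were rich in markers of another class.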
